A study of Homo sapiens with 4 samples.

Results

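The 10 genes described here belong to the NRF2 and glutathione system of antioxidant defence, and were followed in Huh-7 cells with and without transforming growth factor beta (TGF-beta). They are NFE2L2, KEAP1, NQO1, HMOX1, GCLC, GCLM, GSR, GSS, GPX1 and GPX2, and they were taken as every probe set of the expression table that the platform annotation assigns to 1 of these symbols. This gave 14 probe sets of 22215. A probe set is a group of short array probes that together report 1 transcript. All 10 genes had at least 1 probe set, 7 had 1 and 3 had more, and a gene-level comparison used the brightest probe set of each of 12165 genes.

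Huh-7 is an established human hepatocellular carcinoma line. There were 2 arrays of untreated Huh-7 cells and 2 arrays of Huh-7 cells treated with TGF-beta and harvested after 48 h, all grown in Dulbecco's modified Eagle medium to which 10% fetal bovine serum, heat-inactivated, was added, with RNA taken from confluent 10 cm dishes. For the TGF-beta dose and isoform the sources used here give nothing, and the labels name no genetic change in either group. The labels number the arrays 1 and 2 within a group without saying that they are separate cultures. The p-values therefore rest on the spread among these 4 arrays, which could be technical.

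NRF2, the protein of NFE2L2, is a transcription factor that is held in check by KEAP1, an adaptor that hands it to the CUL3 ubiquitin ligase for degradation. Oxidants and electrophiles disable KEAP1, and NRF2 then enters the nucleus, pairs with a small MAF protein and binds antioxidant response elements at genes of detoxification and glutathione synthesis. Glutathione is the most abundant small thiol of the hepatocyte. It is made by glutamate-cysteine ligase and glutathione synthetase, spent by glutathione peroxidases and transferases, and regenerated by glutathione reductase. Because NRF2 is controlled largely through protein stability, the transcript level of NFE2L2 does not report its activity.

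The antioxidant response element core, TGACNNNGC, was looked for on both strands of the RefSeq promoter windows of these genes (GRCh38.p14, 250 bases before to 50 bases after each annotated start). Its letters are shown because KEAP1, GCLM and GPX2, the 3 members that held a match, are also the 3 with the largest positive differences given below. The motif was chosen after these values were seen, and GCLM did not pass the test. The overlap is therefore a description, and a role of the element was not tested. Over all genes, those with a match and those without had nearly the same median, which a few changed genes would not move. The shares that rose, 0.960% with a match and 0.587% without, are given below with the numbers that fell. Windows were at hand for 7 members, 9 windows in all, and HMOX1, GSR and GSS had none in the table. Each line gives up to 30 bases on either side of the match, cut at the transcription start, read 5′ to 3′ on the strand on which the core is spelt, and capitals mark the core. All 3 genes lie on the minus strand. The first KEAP1 stretch is chr19:10502787-10502855 on the minus strand, and the second is chr19:10502772-10502832 on the plus strand and overlaps it. The GCLM stretch is chr1:93909431-93909494 and the GPX2 stretch chr14:64942829-64942897, both on the plus strand.
KEAP1, first match: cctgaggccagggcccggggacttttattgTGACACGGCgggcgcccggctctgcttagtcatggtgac
KEAP1, second match: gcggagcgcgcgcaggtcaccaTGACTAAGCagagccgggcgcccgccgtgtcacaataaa
GCLM: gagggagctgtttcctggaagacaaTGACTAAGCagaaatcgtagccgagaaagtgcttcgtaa
GPX2: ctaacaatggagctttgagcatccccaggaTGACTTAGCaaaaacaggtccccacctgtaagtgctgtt

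The second KEAP1 core and the GCLM core have the same letters, TGACTAAGC, and lie at nearly the same distance before their starts, 31 to 23 bases for KEAP1 and 34 to 26 bases for GCLM. The GPX2 core, TGACTTAGC, lies farther upstream, 122 to 114 bases before the start. Both KEAP1 matches belong to 1 of its 2 annotated starts, and the other start had none. No window of NFE2L2, NQO1, GCLC or GPX1 held these letters, which says nothing of elements outside the window. Such a match is common: 13.3% of all 35116 windows and 16.1% of the 27305 genes with a window held 1. Among the other pathway genes listed for comparison below, 26 of 112 with a window (23.2%) did. The 7-letter AP-1 motif TGANTCA was in none of the 9 member windows, against 7.71% of all windows, and so overlapped none of these cores. The SMAD palindrome GTCTAGAC was also in none, against 0.202% of all windows.

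**Figure D1:**
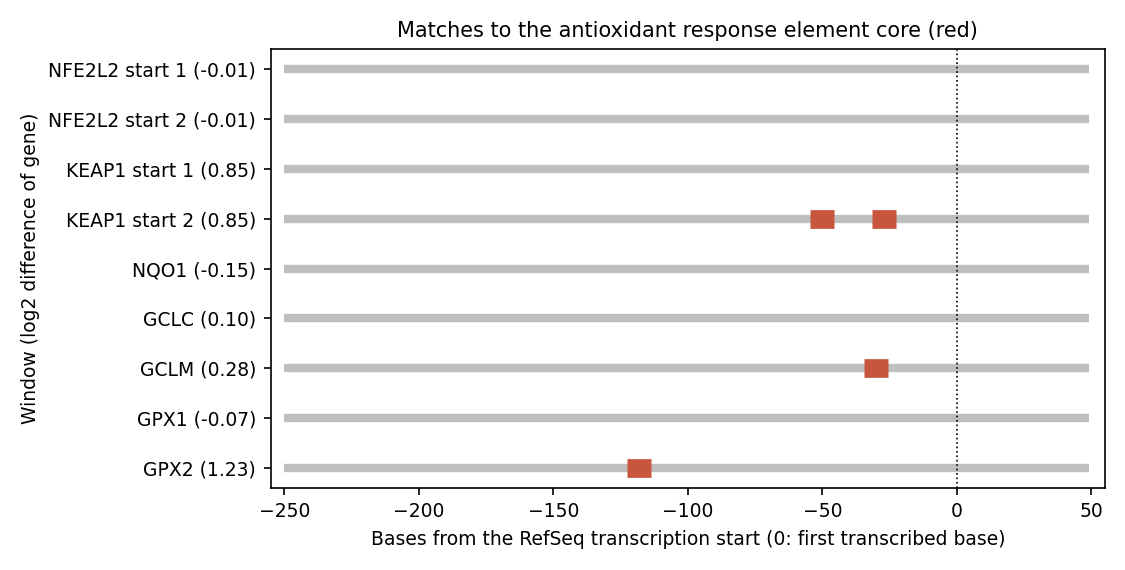
Position of matches to the antioxidant response element core (red) in the 9 promoter windows (grey) of 7 members, in bases from the annotated transcription start; the log2 difference of each gene, TGF-beta minus untreated, stands in parentheses. Matches lie in 1 KEAP1 window, in GCLM and in GPX2, all before the start. The motif was chosen after the values were seen.

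After TGF-beta, GPX2 and KEAP1 rose, and the other 8 members did not pass the test. GPX2 encodes a glutathione peroxidase of epithelial cells that reduces hydroperoxides at the expense of glutathione. GPX2 rose 2.35-fold and KEAP1 1.80-fold. For NFE2L2 itself the 95% interval of the log2 difference ran from -0.27 to 0.24. These comparisons come from limma fitted over all genes with Benjamini-Hochberg adjustment, and a gene was called changed at an adjusted p under 0.05. In that fit 1.22% of all genes were called, 0.658% higher and 0.567% lower, and 2 of the 10 members were. The members were chosen with earlier results of these data known, so this share is a description. In a fit over all probe sets 0.855% were called, and the same 2 genes gave the 2 calls among the 14.

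For the epithelial peroxidase GPX2 (202831_at), the intensities were 1081 and 827 without TGF-beta and 2135 and 2304 with it. Both treated arrays lay clearly above both untreated arrays, which themselves differed by 0.39 on the log2 scale. Its log2 difference was 1.23 ± 0.15 (SE, n = 2 per group), from 9.88 ± 0.27 to 11.11 ± 0.08 (SD), with an adjusted p of 0.0233 in limma. The 95% interval of the fold ran from 1.85 to 2.97.

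For KEAP1 (202417_at), the inhibitor of NRF2, the intensities were 199 and 223 without TGF-beta and 381 and 379 with it. Again the groups did not overlap, and the treated arrays were nearly equal. KEAP1 thereby moved from 7.72 ± 0.11 to 8.57 ± 0.01 on the log2 scale (SD, n = 2 each), a difference of 0.85 ± 0.11 (SE) with an adjusted p of 0.0259 in limma. Its fold had a 95% interval of 1.51 to 2.16. The calls of both genes rested on having both treated arrays. Without TGF-beta array 1 the limma adjusted p was 0.207 for GPX2 and 0.277 for KEAP1, and without TGF-beta array 2 it was 0.197 for both, while their log2 differences stayed between 1.18 and 1.29 for GPX2 and at 0.85 and 0.86 for KEAP1. In these fits 0 of all genes were called by limma, with 1326 and 1563 genes at an unadjusted p under 0.05.

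**Figure D2:**
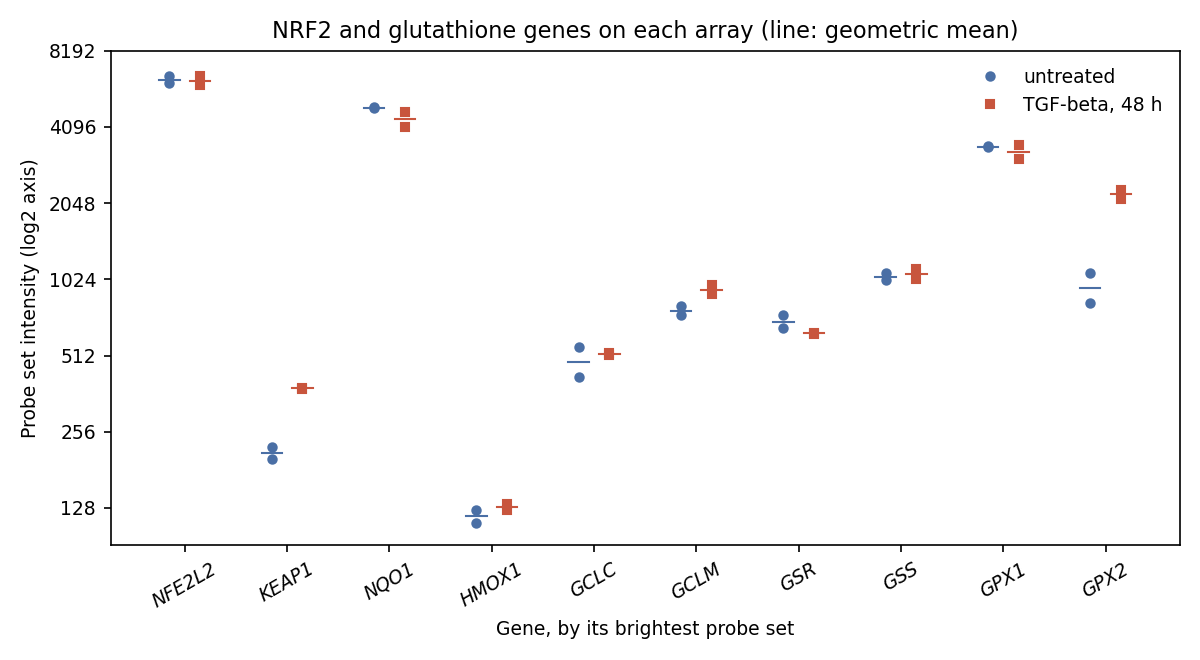
Probe set intensity (log2 axis) of the 10 members on each array, with untreated arrays as blue circles, TGF-beta arrays as red squares and the geometric mean of each pair as a line. The groups do not overlap for GPX2, KEAP1, GCLM, NQO1 and GSR, as for 49.1% of all genes. Of these only GPX2 and KEAP1 passed the limma test. Heights should not be compared between genes, whose probes differ.

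NFE2L2 (201146_at), the transcription factor of the system, was among the brighter probe sets, at 6483 and 6135 without TGF-beta and 6002 and 6499 with it. These values overlapped completely, and the log2 difference was -0.01 ± 0.11 (SE, adjusted p = 0.969 in limma). The 95% interval of the fold, 0.830 to 1.18, did not reach the KEAP1 fold of 1.80. This interval covers only the spread among these arrays, which could be technical. It therefore cannot exclude a change between separate cultures. The direction of NFE2L2 was not settled, since the sign turned when untreated array 1 or TGF-beta array 1 was left out.

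Of the classical target genes, NQO1 encodes a quinone reductase and HMOX1 the heme oxygenase that opens the heme ring. The brightest of 3 NQO1 probe sets (210519_s_at) read 4906 and 4864 without TGF-beta and 4110 and 4697 with it. Both treated arrays lay below both untreated arrays, by a small margin for the nearer one. The log2 difference was -0.15 ± 0.11 (SE, adjusted p = 0.546 in limma, fold interval 0.747 to 1.08). The other probe sets of NQO1, which like it carry the suffix for probes that can match several transcripts, did not share 1 direction. The 201468_s_at set read 2990 and 3235 against 3406 and 3506, a difference of 0.15, and 201467_s_at read 821 and 870 against 728 and 761, a difference of -0.18. Each of the 3 separated the groups, as 47.1% of all probe sets did, and none passed in the probe set fit (adjusted p 0.451 to 0.575), so no direction can be given for NQO1. HMOX1 (203665_at) read 126 and 112 without TGF-beta and 132 and 126 with it. Its groups overlapped, and its log2 difference was 0.12 ± 0.11 (SE, adjusted p = 0.648 in limma, fold interval 0.904 to 1.31).

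Glutamate-cysteine ligase, the rate-limiting enzyme of glutathione synthesis, is built from a catalytic subunit, GCLC, and a modifier subunit, GCLM, that improves its efficiency. GCLM (203925_at) read 742 and 801 without TGF-beta and 894 and 974 with it. Its groups did not overlap and the log2 difference was 0.28 ± 0.11 (SE), with an unadjusted p of 0.0405 and an adjusted p of 0.255 in limma. GCLM was the only member beside GPX2 and KEAP1 with an unadjusted p under 0.05, a level that 18.0% of all genes reached. Its fold interval was 1.01 to 1.45. GCLC, by its brighter probe set (202923_s_at), read 421 and 554 without TGF-beta and 512 and 523 with it, so both treated arrays fell between the untreated ones. The log2 difference was 0.10 ± 0.15 (SE, adjusted p = 0.786, limma). The dimmer GCLC probe set (202922_at) had the opposite sign, -0.11, and also overlapped, at 71.7 and 87.6 against 70.5 and 76.8.

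GSS, glutathione synthetase, completes the tripeptide by adding glycine. Its brighter probe set (211630_s_at) read 1021 and 1081 without TGF-beta and 1029 and 1123 with it, and the other (201415_at) 694 and 725 against 781 and 613. Both overlapped between groups, with log2 differences of 0.03 and -0.04. For the brighter one the limma adjusted p was 0.916 and the fold interval 0.856 to 1.22. GSR (205770_at), the reductase that restores glutathione from its disulfide with NADPH, read 656 and 740 without TGF-beta and 621 and 631 with it. The treated arrays were the lower ones without overlap, yet the log2 difference of -0.15 ± 0.11 (SE) had an adjusted p of 0.533 in limma and a fold interval of 0.749 to 1.08.

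GPX1 (200736_s_at), the ubiquitous cytosolic glutathione peroxidase, read 3413 and 3440 without TGF-beta and 3055 and 3485 with it. The treated arrays straddled the untreated ones. The log2 difference was -0.07 ± 0.11 (SE, adjusted p = 0.811 in limma), with a fold interval of 0.792 to 1.15 that lies wholly below that of GPX2.

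**Figure D3:**
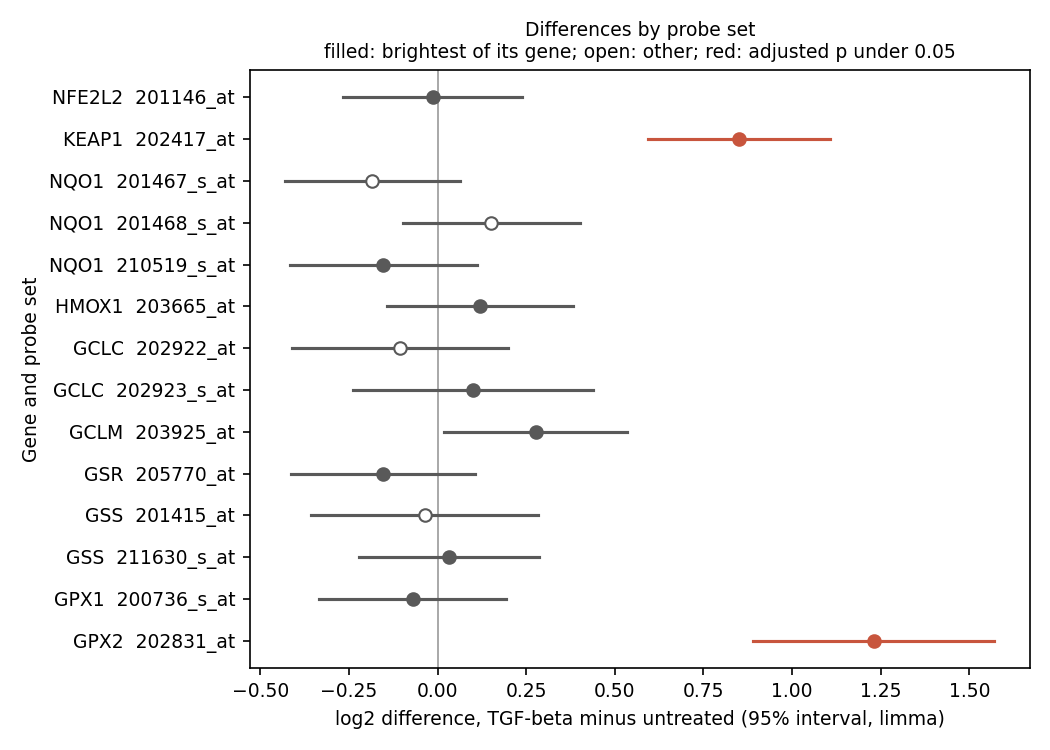
The log2 difference, TGF-beta minus untreated, of each of the 14 probe sets with its 95% interval from the limma fit over all probe sets; filled points are the brightest probe set of a gene, open points the others, and red marks an adjusted p under 0.05. Only GPX2 and KEAP1 are red, and the GCLM interval lies just above 0.

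Across the 10 members the log2 differences ran from -0.15 to 1.23, with a median of 0.07 against -0.01 over all genes, and 6 were positive (48.6% of all genes were). The median became -0.002 when all probe sets of a gene were averaged. Groups did not overlap in 5 members by their brightest probe sets, 3 higher (GPX2, KEAP1 and GCLM) and 2 lower (NQO1 and GSR). Since 49.1% of all genes separated, this count is near the background. The NQO1 probe set 201468_s_at separated in the higher direction. Over all genes, those with the antioxidant response element core in a window did not stand apart in their typical value. The median log2 difference was -0.0073 in the 1875 measured genes with a match and -0.0052 in the 7836 without. Of those with a match 18 rose and 13 fell (0.960% rose), and of those without 46 rose and 45 fell (0.587% rose). Among the other pathway genes the median was -0.06 in 22 with a match and -0.03 in 73 without.

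Genes around the members were grouped into 7 lists of partners, other targets, and glutathione, cysteine and antioxidant enzymes. Of 142 genes in these lists 119 were measured, of which 2 rose, 4 fell and 113 did not pass. This is 5.04% called, against 1.22% of all genes, and the lists were written with earlier results of these data known. As with the members, 0 of them passed in limma without TGF-beta array 1 or 2, with 18 and 22 at an unadjusted p under 0.05.

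Among NRF2 regulators and partners, 1 of 17 measured genes rose, 0 fell and 16 did not pass, with a median of 0.07. Before adjustment, the limma p was under 0.05 for 7 higher and 2 lower genes, a level that 18.0% of all genes reached. This list too was written with earlier results of these data known, so the count is a description. The gene that rose was MAFF, a small MAF protein that pairs with NRF2 or, with BACH1, occupies the same elements. MAFF (36711_at) read 209 and 281 without TGF-beta and 554 and 556 with it, a log2 difference of 1.20 ± 0.15 (SE, adjusted p = 0.0256 in limma). Its other probe set, dimmer at a mean log2 intensity of 5.23 in untreated cells, gave 0.41 and was not called. The next by p were DPP3, a peptidase that competes for KEAP1, at 0.45, and the acetyltransferases EP300 at 0.51 and CREBBP at 0.42, none of which passed (adjusted p 0.0897 to 0.201). The EP300 value came from dim readings, 28.2 and 33.4 without TGF-beta and 45.5 and 42.2 with it. The other, dimmer probe sets of EP300 and CREBBP gave 0.05 and -0.04.

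Of 32 other NRF2 target genes, SLC7A11 fell, 0 rose and 31 did not pass, and the median was -0.09. Before adjustment, the limma p was under 0.05 for 3 higher and 5 lower genes, where 18.0% of all genes reached that level. SLC7A11 is the cystine importer that feeds glutathione synthesis. The SLC7A11 probe set used (217678_at) read 511 and 521 without TGF-beta and 225 and 267 with it. A second bright probe set gave -1.03 and was called as well, while a dimmer one gave -0.36 and was not. AKR1B10, an aldo-keto reductase, read 96.3 and 87.3 against 141 and 182 (log2 difference 0.80, adjusted p = 0.0520 in limma), and EPHX1, the microsomal epoxide hydrolase, read 521 and 459 against 801 and 713 (0.63, adjusted p = 0.0557). Both lay just outside the threshold. ABCC1, an exporter of glutathione conjugates, had a value of 0.45 with an adjusted p of 0.130.

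Cysteine and methionine supply held 18 measured genes, of which 2 fell, 0 rose and 16 did not pass, with a median of -0.02. Beside SLC7A11 the gene that fell was CTH, which releases cysteine from cystathionine. CTH (217127_at) read 291 and 296 without TGF-beta and 140 and 165 with it, and its second probe set gave -1.18 and was called too. CBS, the enzyme before it, had a value of -0.63 (adjusted p = 0.0549 in limma). MAT2A, which makes S-adenosylmethionine, had 0.48 (adjusted p = 0.0731 in limma), and the methionine sulfoxide reductase MSRB2 -0.25. The other probe sets gave 0.11, with overlapping groups, and 0.47 for MAT2A. For MSRB2 the other gave -0.007, also with overlap. Both called genes that bring cysteine to glutathione synthesis were lower, but over the 18 genes 8 differences were positive and 10 negative. The 3 members that carry out the synthesis, GCLC, GCLM and GSS, did not pass in either direction. This does not show that they were unchanged, and GCLM stood at 0.28. A contrast of supply with synthesis was not tested.

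Among 4 other glutathione peroxidases 0 passed in limma, and the median was -0.03. Before adjustment 1 lower gene had a limma p under 0.05, as 18.0% of all genes did. GPX7, of the endoplasmic reticulum, read 158 and 139 against 120 and 121, a log2 difference of -0.30 (adjusted p = 0.222). GPX3, the secreted plasma form, stood at 0.07 and the dim GPX5 at -0.06. GPX2 was therefore the 1 call among the 6 peroxidases measured, members included.

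Glutathione transferases had 1 call in 19 measured genes, a decrease, and a median of -0.01. It was that of GSTA4, which conjugates the lipid peroxidation product hydroxynonenal, at 2565 and 2497 without TGF-beta and 1718 and 1557 with it (log2 difference -0.63, adjusted p = 0.0487 in limma). The call was close to the threshold and was lost in the probe set fit (adjusted p = 0.0551). GSTM3 had a value of -0.39 (adjusted p = 0.138), and GSTT1 and GSTT2, both dim, 0.21 and 0.17.

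Genes of glutathione breakdown and export and the glutaredoxins included 16 measured, of which 1 rose, 0 fell and 15 did not pass, with a median of -0.11. ANPEP, a cell surface aminopeptidase that takes part in the breakdown of extracellular glutathione, read 53.9 and 42.5 against 103 and 87.1 (log2 difference 0.98, adjusted p = 0.0371 in limma). OPLAH, which opens the 5-oxoproline ring, had a value of 0.51 but was dim, at 28.5 and 29.1 against 44.2 and 38.0. CHAC1, which cleaves cytosolic glutathione, had a value of -0.41, and the dipeptidase CNDP2 0.24. None of these passed (adjusted p 0.0791 to 0.295).

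In the last list, heme breakdown and other antioxidant enzymes, 1 of 16 fell, 0 rose and 15 did not pass, with a median of -0.06. That gene, TXNIP, binds and inhibits thioredoxin, and read 657 and 550 without TGF-beta and 197 and 148 with it (adjusted p = 0.0101 in limma). All 3 of its probe sets were called, at -1.91 to -1.62. The peroxiredoxins PRDX2 and PRDX3, which reduce hydrogen peroxide with thioredoxin, stood at 0.30 and -0.30 by their brightest probe sets. The other probe sets gave -0.39 to 0.29 for PRDX2 and 0.09 for PRDX3, so neither has a settled direction. SEPHS2, which makes selenophosphate for selenoproteins such as GPX2, stood at 0.29. None of these 3 passed (adjusted p 0.231 to 0.254).

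**Figure D4:**
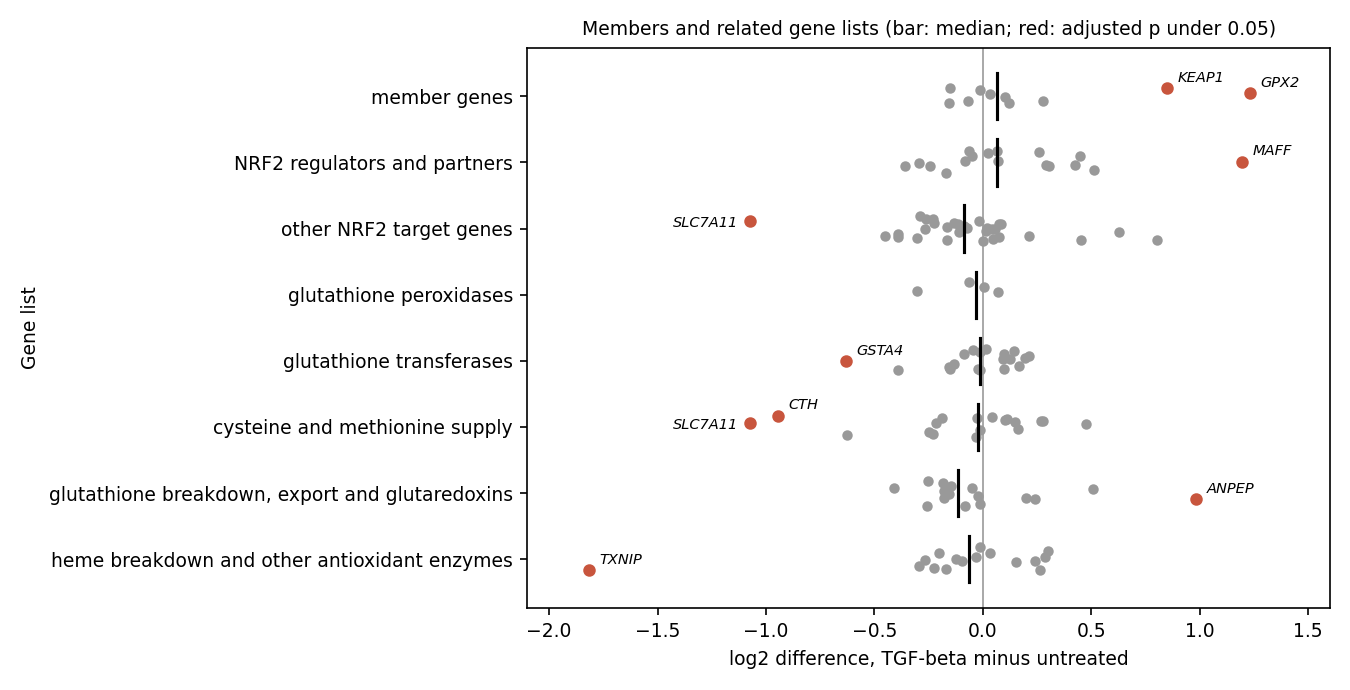
The log2 difference, TGF-beta minus untreated, of each measured gene in the members and in 7 related lists, with the median of each list as a black bar and genes at an adjusted p under 0.05 in red; SLC7A11 is in 2 lists. GPX2, KEAP1, MAFF and ANPEP lie to the right, and SLC7A11, CTH, GSTA4 and TXNIP to the left.

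As a check of the label, each of the 9 hepatocyte markers had a mean above the upper quartile of probe sets, with APOA1 higher and TTR lower after TGF-beta. Of 6 fibroblast markers 5 had group means of 32.6 to 57.4 and LUM read 6692 to 7292. The 5 endothelial markers had means over all 4 arrays of 20.7 to 44.9, with PECAM1 at 50.4 in untreated cells. The median over all probe sets was 50.3. The summed level of the 5 measured leukocyte markers was 204 to 209 in untreated cells and 269 to 286 after TGF-beta. This difference lay in CD14, at 75.6 and 75.4 against 146 and 157 (adjusted p = 0.0167 in limma), while PTPRC, the defining leukocyte marker, read 28.3 to 31.7, near the lower quartile of 29.1. Fewer cells of a type and less RNA per cell cannot be told apart in such bulk samples. Median array intensities were 50.1 to 51.0, so the arrays had about equal brightness.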

How the data were processed

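The authors deposited 1 linear-scale intensity per array for each of 22215 probe sets. Of tools, the submitters' processing notes give the affy package. For background correction, normalization, summary method and genome build the sources used here give nothing. Quartiles were nearly equal between arrays, so the deposited intensities were taken as normalized and converted to log2 with no offset. Probe sets were named by the platform annotation, with symbols updated by Entrez number through RefSeq (GRCh38.p14); 19724 name 1 gene, 568 several and 1923 none. The brightest probe set stands for a gene. Groups were compared with limma 3.58.1 in R 4.3.3 (lmFit, eBayes, 7.41 degrees of freedom per gene), adjusted over all 12165 genes, or over all probe sets in a second fit. The procedure was tested on simulated data. Arrays have no read depth, and their number limits the precision.

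The members, the lists and the rule for named genes (all members, and of each list every called gene and up to 3 more by p) were chosen with earlier results of these data known. The promoter motifs were chosen after the values were seen. Alternatives tried were quantile normalization, median centring, an offset of 16, a filter on dim genes, a variance trend, the mean of all probe sets, a replicate block and leaving out each array. Plots used matplotlib 3.10.9.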

Additional observations from a re-analysis of the deposited data

How the results depend on the processing

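GPX2 and KEAP1 were called in 9 of the 11 alternatives, the exceptions being the fits without TGF-beta array 1 or 2, and no other member was called in any. Leaving out 1 array gave 0 to 2 member genes, 0 to 2 member probe sets, 0 to 10 other pathway genes and 0 to 523 genes in all (limma; with 0 called, 2 member genes, 18 and 22 other pathway genes, and 1326 and 1563 of all genes had an unadjusted p under 0.05). All genes called numbered 63 under quantile normalization, 89 without dim genes, 616 with a variance trend and 1229 with the replicate block, against 149. Other pathway genes called numbered 16 with the trend and 19 with the replicate block, against 6. The block rests on a shared number alone, and it changed no member's call. GPX2 and KEAP1 have 1 probe set each, so averaging left their log2 differences as they were. The block, the trend and the dim filter did so too, and could alter only their p-values. Over all 12165 genes, deviations of the arrays numbered 1 from their group means had a correlation of 0.0097 between the groups. With all probe sets averaged, GCLC turned to -0.0036 and GSS to -0.0014. Over the fits without 1 array, GCLC ran from -0.098 to 0.298 and GPX1 from -0.165 to 0.025. GSS ran from -0.030 to 0.096 and NFE2L2 from -0.071 to 0.043, so these 4 have no settled direction. NQO1 has none either, since its 3 probe sets did not share 1 direction. The causes were not tested.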
